A study of Ovis aries with 18 samples.

Results

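The miR-148 and miR-152 family was represented by 3 rows in the deposited table for extracellular vesicles of the uterine lumen, which has 495 rows, and by the same 3 rows in the table for endometrium, which has 761. A row belonged to the family if its name, or the name of the known miRNA listed with it for a shared seed, was that of miR-148a, miR-148b or miR-152. The rows are miR-148a (oar-miR-148a) and miR-152 (oar-miR-152), which carry sheep names, and a predicted locus with the identifier 3_26580, listed with the seed of the bovine miR-148a. Because unrelated loci can have the same seed, this one is called by its identifier. No row was named for, or listed with, miR-148b. Since miR-148b has the seed of miR-148a, 3_26580 could be another locus of miR-148a, the sheep miR-148b or another miRNA with that seed. The first part of its identifier, 3, looks like a chromosome number, but neither a sequence nor coordinates were given to settle this.

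The seed, bases 2 to 8 of the mature strand, does most of the work of choosing which messenger RNAs a miRNA represses. The main mature strands of miR-148a, miR-148b and miR-152 have the same seed and near-identical sequences, so they can repress the same transcripts, and short reads of one can be counted as another. The family is known for repressing the maintenance DNA methyltransferase DNMT1 and, in human cells, the HLA-G transcript. miR-148a is abundant in liver and in vesicles of milk. In human, miR-148b and miR-152 are encoded in introns of COPZ1 and COPZ2, which code for the zeta subunits of the coatomer complex. In the RefSeq gene table of the sheep assembly ARS-UI_Ramb_v3.0, MIR152 lies within the span of COPZ2, and no listed gene spans MIR148A.

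All animals were sheep (Ovis aries), ewes without ovaries, given progesterone (P4) at 50 mg per day for 14 days, so their hormone came from injection and not from an ovary, and no group went without progesterone. In the P4+RU486 group 50 mg of RU486 (mifepristone), an antagonist of the progesterone receptor, was added daily from day 8 to day 14. Small RNA was sequenced from vesicles of 4 ewes per treatment, isolated by size exclusion from a uterine flush. It was also sequenced from the endometrium of 5 ewes per treatment, and all the vesicle ewes were among these. The vesicle libraries are called P01 to P04 for P4 and R01 to R04 for P4+RU486, since their columns show the treatment but not the ewe.

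The vesicle libraries held 97202 to 1062646 reads in listed rows, recovered from the deposited normalized values (CPM on an adjusted library size, called normalized CPM here). These sums include 164 rows that share all values with another row, so a read may be counted in several rows. P01, P04 and R04 were the 3 shallowest, with 97202, 97593 and 101186 reads. The read floor (3 reads) was 3.30 normalized CPM in the deepest library and 31.3 in R04, for counting error only. Rows for epithelial miRNAs, among them the miR-200 family, made up 1.94% ± 0.780 of reads under P4 alone and 1.81% ± 0.262 with RU486 added (SD, n = 4 each). Rows of smooth muscle miRNAs made up 1.34% ± 0.295 and 1.19% ± 0.195 (SD, n = 4 each). For leukocyte rows the shares were 0.790% ± 0.781 and 0.303% ± 0.130, and for the erythroid row 0.325% ± 0.369 and 0.313% ± 0.177 (SD, n = 4 each). Markers of other cell types were thus present beside the epithelial ones. The 2 liver or plasma rows summed to 0.0143% to 0.0576% of reads under P4 and 0.00988% to 0.0131% with RU486 added, without overlap. Row by row, 1 of the 2 was higher and 1 lower in P4+RU486, so the sum does not describe both. Only 1 of them did not overlap by itself, as was so for 10.0% of all 229 tested rows. The limma test called 0 of the 2 liver or plasma rows (0.437% of all tested rows). No row matched the endothelial miR-126.

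miR-148a was among the most abundant miRNAs of the vesicles in both treatments. In the P4 libraries P01 to P04 it stood at 18974, 16462, 30720 and 25997 normalized CPM. In the P4+RU486 libraries R01 to R04 it stood at 22724, 31382, 22363 and 21977. The lowest value was in a P4 library (P02) and the highest in a P4+RU486 library (R02), and the other P4+RU486 libraries all lay inside the P4 range.

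The mean of miR-148a was 23038 ± 6520 under P4 alone and 24612 ± 4524 with RU486 added (SD, n = 4 each). The log2 difference, P4+RU486 minus P4 on the log2(value + 1) scale, was 0.12 (SE 0.24, 95% interval -0.40 to 0.64, limma adjusted p = 0.879). As a fold this interval runs from 0.758 to 1.56, so a rise or fall of 2-fold lies outside it. The difference depended on single libraries in both directions. It was 0.00 without R02 and -0.024 without P02, but 0.20 without P04 and 0.28 without P03. The levels of miR-148a came from 2105 to 27955 reads per library, so counting error was small beside the differences between libraries. In R02, for instance, the 95% Poisson interval of the level was 30770 to 32002.

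The predicted locus 3_26580 was present in every library at a far lower level. In P01 to P04 it stood at 291, 191, 252 and 305 normalized CPM, and in R01 to R04 at 328, 395, 383 and 230. Of the P4+RU486 libraries, 3 lay above all P4 libraries, while R04 lay inside the P4 range, so the treatments overlapped. R04 was also one of the 3 shallowest libraries, with 22 reads of this row and a 95% Poisson interval of 143.9 to 347.7 normalized CPM.

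The mean of 3_26580 was 260 ± 51.1 under P4 alone and 334 ± 75.1 with RU486 added (SD, n = 4 each). The log2 difference was 0.35 (SE 0.32, 95% interval -0.33 to 1.04, limma adjusted p = 0.704), which did not pass the threshold of 0.05. It was larger than that of miR-148a in this fit, but the difference between these 2 rows was not tested. Without P01, P04 and R04 together, an alternative chosen after the data were seen, the limma estimate was 0.74 (limma adjusted p = 0.293). These libraries held the highest P4 values and the lowest P4+RU486 value of this row, so leaving them out had to raise the estimate. Only P02 and P03 then remained for P4. With 1 library left out the log2 difference ranged from 0.21 to 0.52, above 0 each time.

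miR-152 was near the limit of what these libraries can measure. It stood at 7.86, 20.6, 22.0 and 9.54 normalized CPM in P01 to P04 and at 8.63, 25.1, 14.3 and 20.9 in R01 to R04. These values rest on 1, 11, 20 and 1 reads and on 2, 8, 3 and 2 reads, 48 in all, and 5 of the 8 libraries were at or under the floor of 3 reads. The treatments overlapped along nearly their whole range.

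The mean of miR-152 was 15.0 ± 7.32 under P4 alone and 17.2 ± 7.23 with RU486 added (SD, n = 4 each). The log2 difference was 0.22 (SE 0.69, 95% interval -1.30 to 1.73, limma adjusted p = 0.913), so neither a fall of 2-fold nor a rise of 3-fold lies outside the interval. In P03, the deepest library, the 95% Poisson interval was 13.4 to 33.9 normalized CPM, and in P01 it was 0.199 to 43.8.

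**Figure D1:**
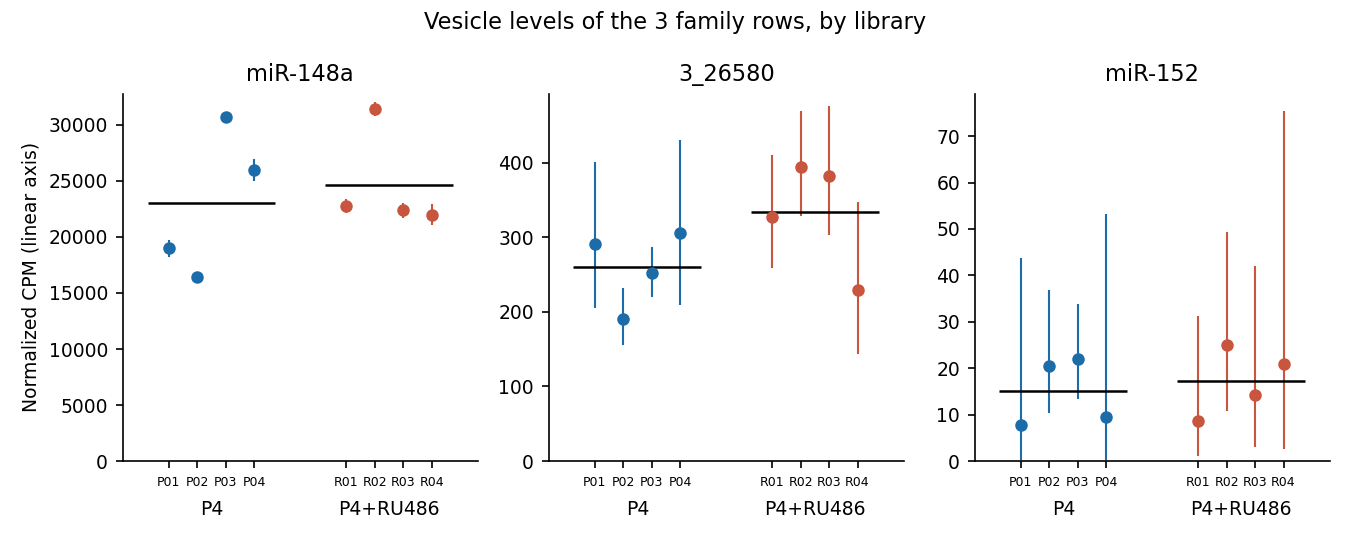
Normalized CPM (linear axes) of each family row in the 4 P4 (blue) and 4 P4+RU486 (red) vesicle libraries. Points are libraries, vertical bars are 95% Poisson intervals of the reads (counting error only), and black lines are group means. The bars are short for miR-148a and span most of the panel for miR-152, whose values rest on 1 to 20 reads, and the treatments overlap in all 3 panels.

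None of the 3 family rows passed the limma test, in which 1 of 229 rows (0.437%) was called, and none had an unadjusted p under 0.05, where 33 of 229 rows (14.4%) did. On the recovered reads edgeR called 0 of the 3 family rows (0.437% of all rows) and gave 0 of them an unadjusted p under 0.05 (14.8% of all rows). DESeq2 called 0 of the 2 to which it gave an adjusted p (2.18% of all rows), with none for miR-152, and 0 of the 3 had an unadjusted p under 0.05 (14.4% of all rows). No family row separated the treatments without overlap, as 23 of the 229 rows (10.0%) did. With so few members, a count of 0 differs little from the background. All 3 family rows had a log2 difference above 0, with a median of 0.22, against 118 of 229 rows above 0 and a median of 0.04. When 1 library was left out, miR-148a turned negative without P02 and miR-152 without P01 (-0.027). The difference of 3_26580 stayed above 0, but its limma interval over all libraries, -0.33 to 1.04, includes 0. This direction is therefore not settled for any family row.

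In the order of mean levels, miR-148a was the 8th of the 495 vesicle rows, 3_26580 the 98th and miR-152 the 197th. Ahead of miR-148a, the rows 10_3805 and X_35741 at ranks 5 and 6 have identical values and may hold 1 signal. By library, miR-148a ranked between 7 and 13, 3_26580 between 90 and 103, and miR-152 between 172 and 227. The row just above miR-148a was miR-191, at 26841 ± 7274 (SD, n = 8), which was the higher of the pair in 4 of 8 libraries. The row just below was miR-30a-5p, at 20401 ± 5553 (SD, n = 8), which was higher than miR-148a in 2 of 8. miR-148a itself averaged 23825 ± 5263 (SD, n = 8), so neither neighbour differed from it beyond the spread.

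The lower 2 family rows also sat among rows of the same level. The neighbours of 3_26580 were 9_34693, with the miR-1839 seed, at 299 ± 64.7 (SD, n = 8), and X_35692, with the miR-504 seed, at 293 ± 138 (SD, n = 8). 3_26580 averaged 297 ± 71.4 (SD, n = 8). Those of miR-152 were 20_19176, listed with no seed, and 3_26586, with the miR-615-3p seed, both with libraries at 0. miR-152 had at least 1 read in every library.

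**Figure D2:**
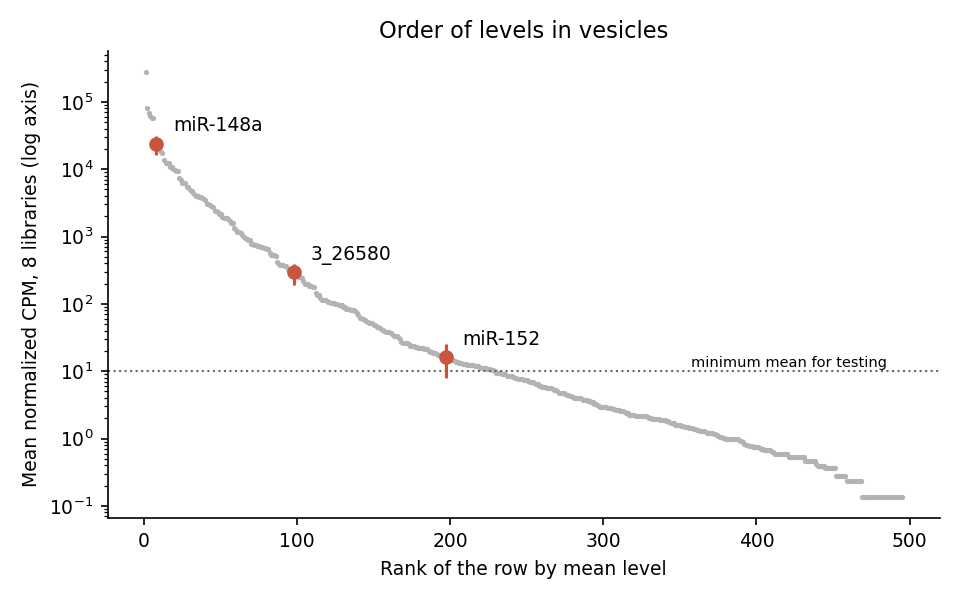
Mean normalized CPM over the 8 vesicle libraries (log axis) of all 495 rows, against their rank. Red points are the family rows, with bars from their lowest to their highest library. miR-148a lies near the top of the curve at rank 8, and the bar of miR-152 reaches below the mean of 10 that was asked of tested rows.

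Summed over the 3 rows, the family made up 2.39% ± 0.569 of vesicle reads under P4 alone and 2.43% ± 0.453 with RU486 added (SD, n = 4 each). The lowest share was 1.56% in P02 (exact Clopper-Pearson 95% interval 1.53% to 1.59%) and the highest 3.09% in R02 (3.03% to 3.15%). These intervals cover counting error only, since the reads carry no molecular identifiers and need not be independent molecules. The shares of both treatments overlapped. Reads were summed over all 495 rows, of which 164 share all values with another row and may hold the same reads. With identical rows counted once, the mean share was 2.557% in P4 and 2.565% in P4+RU486.

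Nearly all of this share was miR-148a, which made up 98.8% ± 0.274 of the family's reads under P4 alone and 98.6% ± 0.259 with RU486 added (SD, n = 4 each). A ratio of 2 rows within a library does not depend on how the library was scaled. For each 1000 reads of miR-148a there were 15.3, 11.6, 8.19 and 11.7 reads of 3_26580 in P01 to P04 and 14.4, 12.6, 17.1 and 10.5 in R01 to R04. The means were 11.7 ± 2.91 and 13.6 ± 2.82 (SD, n = 4 each), a difference smaller than the spread between libraries of a treatment. The lowest ratio was in P03 and the highest in R03, and the treatments overlapped. How efficiently each miRNA is ligated and amplified was not measured, so these ratios need not be those of the molecules in the vesicles.

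The spread between libraries of a treatment was below the median of all rows for miR-148a and 3_26580. Of these, only 3_26580 was also below most rows of its level. Differences between ewes and between library preparations cannot be told apart in this spread. The SD within treatments on the log2 scale was 0.34 for miR-148a and 0.33 for 3_26580, against a median of 0.66 over the 229 tested rows, and 81.7% and 83.4% of the rows had a larger one. Spread falls with level in these libraries, so rows of like abundance are the closer comparison. Of the 20 rows nearest to 3_26580 in level, 16 had a larger SD (median 0.55). Of the 17 rows nearest to miR-148a, 7 had a larger SD (median 0.26), so most of them varied less than it did. For miR-152 the SD was 0.67, and 15 of the 20 nearest rows had a larger one (median 1.34).

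**Figure D3:**
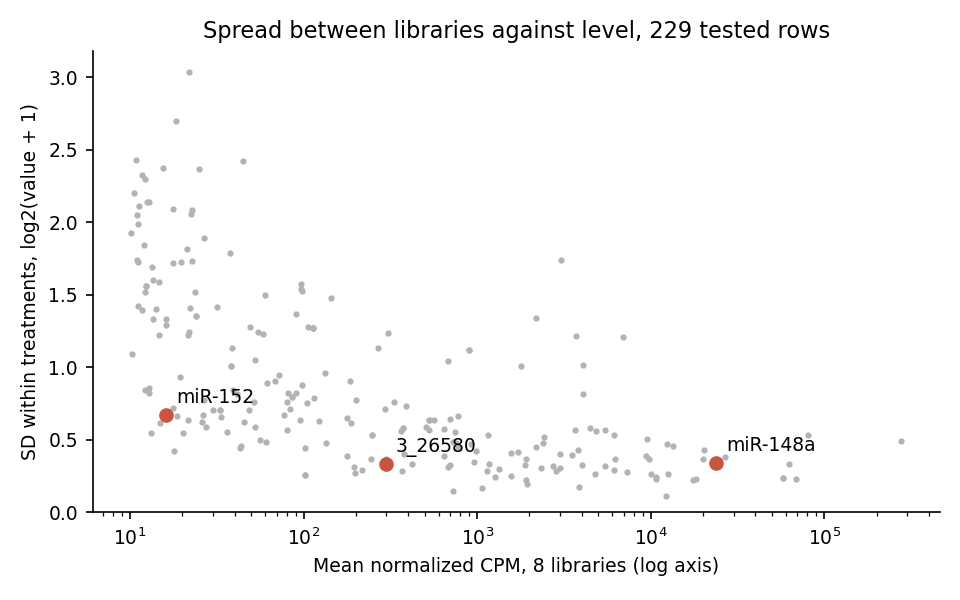
SD within treatments of log2(value + 1) against mean normalized CPM (log axis) for the 229 tested vesicle rows. Red points are the family rows. 3_26580, at 0.33, lies low among rows of its level, and miR-148a, at 0.34, lies amid the abundant rows.

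Across the 8 vesicle libraries none of the 3 pairwise correlations between family rows, on the log2 scale, passed a permutation test. For miR-148a and 3_26580 Pearson's r was 0.52 (exact permutation p = 0.191, adjusted 0.533) and Spearman's rho 0.62 (exact permutation p = 0.115, adjusted 0.345). Without P02 and R02, the libraries farthest from the median of miR-148a, r was -0.24, so this relation rests on those libraries, which held the lowest and highest values of both rows. For miR-148a and miR-152 r was 0.31 (exact permutation p = 0.431, adjusted 0.533) and rho 0.48 (exact permutation p = 0.243, adjusted 0.365), and r was 0.52 without P02 and R02. For 3_26580 and miR-152 r was -0.26 (exact permutation p = 0.533, adjusted 0.533) and rho -0.02 (exact permutation p = 0.977, adjusted 0.977), and r was -0.54 without P02 and R02. Under library totals as the scaling, r was 0.66 for miR-148a and 3_26580, -0.035 for miR-148a and miR-152, and -0.39 for 3_26580 and miR-152. With 4 libraries, a treatment is too small for a correlation of its own.

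The 5 tested rows whose profile over the 8 libraries was most like that of miR-148a are given as a description, by Pearson's r on the log2 scale. The most alike was 5_29929, with the seed of miR-181a, a miRNA studied in lymphocyte development, at r = 0.83 (0.76 to 0.89 with 1 library left out) and a mean of 921 normalized CPM. Next were 4_28569, with the miR-599 seed, at r = 0.82 and a mean of only 11.8, and miR-200a, which represses the ZEB factors and so helps keep cells epithelial. miR-200a had an r of 0.80 (0.70 to 0.96 with 1 library left out) at a mean of 2983. The row 15_10953, with the miR-99a-5p seed, followed at 0.70 (0.46 to 0.77 with 1 library left out). After it came 1_2685, with the seed of the neuronal miR-9-5p, at 0.68 (0.61 to 0.81 with 1 library left out). The row 5_30487, with the same seed as 1_2685, has identical values and ties with it, so both may hold 1 signal. Over all 226 other tested rows r had a median of 0.08 and ran from -0.95 to 0.83. All rows of a library share its scaling and depth, and with library totals as the scaling the r of 4_28569 was 0.62 and that of 1_2685 0.32, while those of 5_29929, miR-200a and 15_10953 were 0.77, 0.77 and 0.81.

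Other miRNAs reported to repress DNA methyltransferases were set beside the family, as a list of miR-29, miR-126, miR-143, miR-185 and miR-342. The list had 6 vesicle rows, all tested, of which 0 passed the limma test (0.437% of all tested rows did). edgeR called 0 of the 6 (0.437% of all rows) and DESeq2 0 of the 5 to which it gave an adjusted p (2.18% of all rows), and 0 had an unadjusted p under 0.05 in these 3 fits. Of these, 1 was higher and 5 lower in P4+RU486, with a median log2 difference of -0.34 against 0.22 for the family and 0.04 for all 229 rows. The higher row was miR-29b, at 0.13 (SE 0.75). Among the lower rows 12_6721 and 12_6717, both with the miR-29b seed and at -0.76 (SE 0.53), have identical values and may hold 1 signal. With these counted once, the median over 5 rows was -0.21. The difference between the medians of the list and of the family was not tested. No row matched miR-126 or miR-185.

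The most abundant row of this list was miR-143, a smooth muscle miRNA also reported to repress DNMT3A. It averaged 12899 ± 2501 under P4 alone and 12211 ± 2170 with RU486 added (SD, n = 4 each), and the log2 difference was -0.08 (SE 0.22, limma adjusted p = 0.913). miR-29a, which represses DNMT3A and DNMT3B, averaged 877 ± 301 and 626 ± 187 (SD, n = 4 each), a difference of -0.46 (SE 0.34, limma adjusted p = 0.602) that was -0.27 without P01, -0.70 without P02 and -0.025 without the 3 shallowest libraries. The row 18_13295, with the seed of the leukocyte miR-342, averaged 742 ± 208 and 623 ± 69.2 (SD, n = 4 each), a difference of -0.21 (SE 0.29, limma adjusted p = 0.814) that was -0.089 without P01, -0.10 without P04 and -0.36 without P02. The mean of miR-148a was 1.90 times that of miR-143, and its lowest library (16462) lay above the highest of miR-143 (16350).

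**Figure D4:**
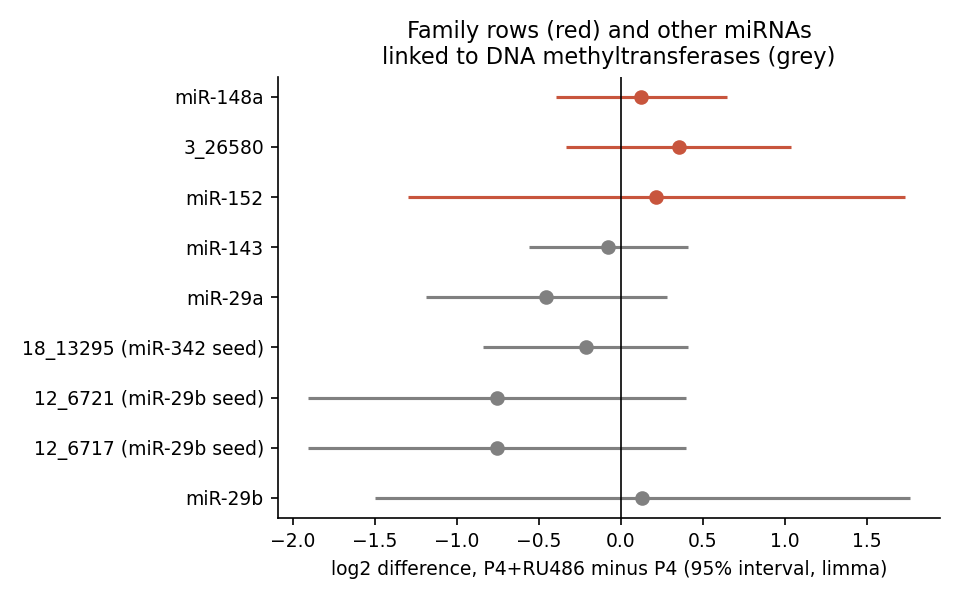
Difference between P4+RU486 and P4 vesicle libraries on the log2(value + 1) scale, with 95% limma intervals, for the 3 family rows (red) and the 6 rows of the DNA methyltransferase list (grey). All 9 intervals include 0, and that of miR-152 runs from -1.30 to 1.73.

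In the authors' deposited table for vesicles, miR-148a has a signed fold of -1.07 and 3_26580 one of -1.30, with adjusted p-values of 1 and 0.85. For miR-152 the authors' deposited table gives 1.05 (adjusted p = 1). The numerator is not named, but of 436 rows with a fold size above 1.1, 398 are positive where the deposited P4 mean is higher or negative where it is lower, so a positive fold was read as higher in P4. Since that reading comes from the same values, a match of signs with limma is no separate evidence. By it, the sign for miR-152 is opposite to its means, which were higher in P4+RU486. The authors called 9 of the 495 rows there (1.82%) at an adjusted p under 0.05. The median fold size is 1.63, larger than those of all 3 family rows. That median covers rows of every level, and only 229 of the 495 had a mean of at least 10. It is therefore no comparison with rows of like abundance.

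In the authors' deposited table for endometrium, none of the 3 rows has an adjusted p under 0.05, where 9 of 761 rows (1.18%) do. The signed folds are -1.06 for miR-148a (adjusted p = 0.953), 1.06 for 3_26580 (adjusted p = 0.985) and -1.17 for miR-152 (adjusted p = 0.885). That table does not name which treatment is the numerator, so these signs give no direction. miR-148a and 3_26580 have opposite signs at the same size. All 3 sizes are below the median fold size of 1.25 in the authors' deposited table for endometrium. Of its rows, 82.1% have a larger fold than miR-148a and 59.5% a larger one than miR-152. The rows were not matched for level here either. Endometrium levels per library were not used here, so no level in tissue is set beside that in vesicles, and whether the response differs between tissue and vesicles was not tested.

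**Figure D5:**
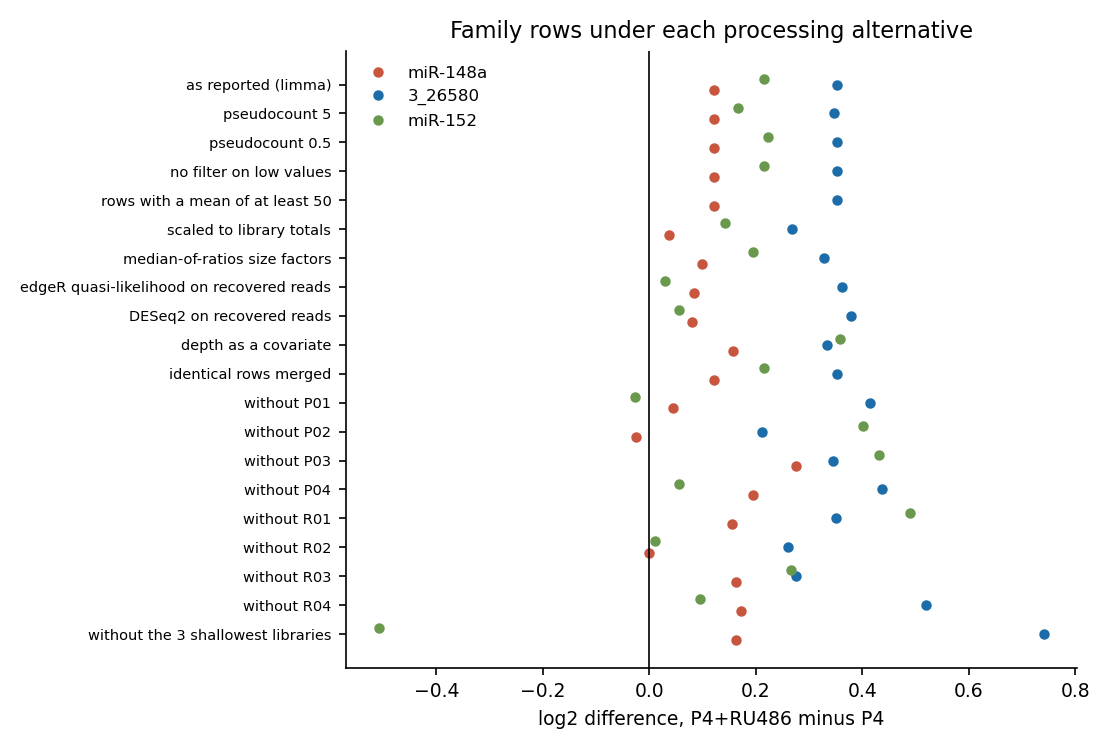
Difference between P4+RU486 and P4 vesicle libraries on the log2 scale for miR-148a (red), 3_26580 (blue) and miR-152 (green), as reported and under each processing alternative. 3_26580 stays above 0 throughout, from 0.21 without P02 to 0.74 without the 3 shallowest libraries. miR-148a and miR-152 cross 0 when single libraries are left out, and miR-152 was not tested at a minimum mean of 50.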

How the data were processed

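The authors deposited a normalized signal for vesicles (CPM on a library size adjusted by TMM, as the values show). Every column had a step of its own, of which 100% of its values were multiples within 0.1 read, and dividing by it gave whole reads. The submitters' processing notes name cutadapt 1.11, the build Oar_v3.1 and edgeR. The aligner was not given in the sources used here, nor was the predictor of loci. The authors' signed fold change (a score with no value between -1 and 1) and adjusted p-value were copied from the deposited tables. The 10 endometrium value columns carry names found in no label and were left out. The design's test of endometrium libraries was therefore not run.

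Vesicle treatments were compared with limma 3.58.1 (trend, R 4.3.3) on log2(value + 1), over the 229 rows with a mean of at least 10, with Benjamini-Hochberg adjustment over all of them. edgeR 4.0.16 and DESeq2 1.42.0 on recovered reads were alternatives, and the fits were tested on simulated data. Libraries of a treatment differed beyond sampling noise (chi-square per degree of freedom of at least 24.6), so none was counted as a duplicate. They come from separate ewes.

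Besides the family, rows were named by rule: the 5 with the highest correlation with miR-148a, the neighbours in level, and the 3 most abundant rows of the methyltransferase list. The members and lists were chosen with earlier results of these data known.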

Additional observations from a re-analysis of the deposited data

Results flagged for a closer look

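The level of miR-148a in library R02 of P4+RU486, 31382 normalized CPM, lay far from the other 3 libraries of its group, which ran from 21977 to 22724. Its gap to the nearest of them took 0.921 of the group's range. Chance takes about 1 in 20 groups past the limit used here, and 10 groups were examined. The family's share of reads, which is nearly all miR-148a, was also farthest out in R02 within P4+RU486. Its gap of 0.784 of the range was not past that limit, so the flag holds for the normalized level and not for the share. Without R02 the log2 difference of miR-148a was 0.00 in place of 0.12.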

How the results depend on the processing

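The number of rows called in vesicles was 1 as reported, 5 with DESeq2 (2 higher, 3 lower), 6 with depth as a covariate (4 higher, 2 lower), and 0 to 2 with 1 library left out (0 without P04, R01, R03 or R04). No family row passed in any of these fits, though DESeq2 gave miR-152 no adjusted p. The log2 difference of 3_26580 was above 0 in all 19 alternatives (0.21 to 0.74, adjusted p from 0.293 to 0.899). Its 0.74 came without the 3 shallowest libraries, which held its highest P4 values and its lowest P4+RU486 value. The log2 difference of miR-148a turned in 1 of 19 (-0.024 without P02), with a range of -0.024 to 0.28 over the fits with 1 library left out. That of miR-152 turned in 2 of 18 (-0.027 without P01, -0.51 without the 3 shallowest libraries), with a range of -0.027 to 0.49. Outside the family, miR-143 turned without P03 (0.043) and without R03 (0.029), with a range of -0.18 to 0.043, and 18_13295 without the 3 shallowest libraries (0.20). miR-29a stayed below 0 in all 19 alternatives, from -0.70 without P02 to -0.025 without the 3 shallowest libraries. The cause was not tested. The family's share of reads and the share of miR-148a in the family moved by less than 1 SD in every alternative run. With 1 library left out, the family's share was 2.25% to 2.67% in P4 and 2.20% to 2.53% in P4+RU486. The alternative restricted to 3p arms was not run, since the names of the 3 rows give no arm. No paired analysis was possible because the treatments were given to different ewes and the vesicle columns name no ewe. Depth limits miR-152 most, with 1 to 20 reads per library.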

Other observations

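Among the 226 other tested vesicle rows, those that ran most opposite to miR-148a were X_35741 and 10_3805, both with the miR-92a seed and with identical values, so they may hold 1 signal. They were picked because their correlation was the lowest. Pearson's r was -0.95 over the 8 libraries on the log2 scale (-0.98 to -0.92 with 1 library left out) and Spearman's rho -0.90. Their highest value, 76358 normalized CPM, was in P02, where miR-148a was lowest, and their lowest, 45290, was in R02, where miR-148a was highest. With library totals as the scaling, r was -0.49. The treatments did not separate these rows, and their log2 difference was -0.16 (SE 0.20, limma adjusted p = 0.806).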
